A study of Botryllus schlosseri with 27 samples.

Results

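The 150 contigs described here marked line SB825 of Botryllus schlosseri at every age sampled, and were chosen from the 50106 contigs of the count table. Botryllus schlosseri is a colonial sea squirt, an invertebrate chordate whose zooids are linked by 1 shared vascular bed and are replaced by budding, so that a genotype lives on as a colony of clonal individuals. A contig is a transcript sequence put together from expressed sequence tags (ESTs). The species is highly polymorphic, and an EST assembly can hold alleles, isoforms and copies of 1 gene as separate contigs.

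The study compared whole colonies of 3 lines, SB825, SMG and SMH, all wild type, raised in the laboratory and taken at blastogenic stage B2, without treatment. In each line the youngest colony (g3) was 4 months old and an F1 of the 2-year-old colony (g2), which in turn was an F1 of the 3-year-old colony (g1). Each line and age had 3 libraries that carry 1 genotype name, giving 9 SB825 libraries, 9 SMG libraries and 9 SMH libraries. They are called biological replicates in the study, whose methods also speak of 3 systems (groups of zooids) per sample, so whether they came from separate colonies is not clear, and their spread may be one within a colony. Age, generation and genotype changed together within a line.

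The members were chosen from measured values. The 3 libraries of each line and age were summed and expressed as CPM, which is the count as a share of the summed total on a fixed scale, and 21092 contigs reached 2 CPM in all 3 SB825 sums. These were ranked by a score, the log2 ratio of the lowest SB825 sum to the highest of the 6 SMG and SMH sums after adding 0.05 CPM to each, and the first 150 were kept. The difference between SB825 and the other lines is thus a description, and no test is given for it. RNA came from whole colonies, in which fewer cells of a type and less RNA per cell cannot be told apart. Reads of all lines were mapped to the same EST assembly, so a low or zero count means few or no reads placed on that contig. It does not show by itself that a gene was not expressed. Whether sequence differences between the lines play a part was not tested.

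Total reads per library were alike in the lines, 32884060 to 40178834 in SB825, 34321570 to 44379398 in SMG and 31013902 to 48426188 in SMH. TMM scaling factors, which correct for a few abundant transcripts taking a changing share of the reads, were 1.06 to 1.43 in SB825, 0.631 to 1.15 in SMG and 0.738 to 1.06 in SMH. The 4-month SMG libraries, whose columns carry the line name SMGO and were taken as SMG without a source that states the names to be the same, stood apart from the others: 2.77% of the 21092 contigs had no read in their sum, against 0.218% to 0.422% in the other 5 SMG and SMH sums. Of the 150 members, 148 were also chosen when the 4-month SMG libraries were left out of the ranking, an alternative added after seeing the data. In SB825 the third 3-year library differed most from its group, with a chi-square per degree of freedom of 26.3 and 52.3 against the first and second library, which differed from each other by 13.1; pairs at the other ages gave 6.81 to 16.3.

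None of the 50106 contig names was found in the RefSeq gene table (assembly Bs_hap1, 27655 genes), and 0 of the 150 members were in the 1998 rows at hand of the study's table of contigs that differed between old and young colonies, the only one at hand that pairs contigs with protein homologs. It held 490 of the 21092 contigs, or 2.32%, and a contig can be absent from it because it did not differ there or because only part of the table was at hand. The contigs are therefore given by their assembly names, with no function and no sequence.

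The members had moderate read levels in SB825, and in the other lines they were far lower or without a read. The mean of the 3 SB825 sums had a median of 8.93 CPM over the members, with a range of 2.29 to 710.0 CPM, and the median was 11.8 CPM over the 21092 contigs. In all, 70 members averaged 10 CPM or more, 17 averaged 50 CPM or more and 8 averaged 100 CPM or more. The highest SMG or SMH sum had a median of 0.350 CPM over the members and was 1 CPM or more in 40 of them, 5 CPM or more in 10 and 10 CPM or more in 3. Summed over the members, SB825 had 4245, 4423 and 3358 CPM at 4 months, 2 years and 3 years, SMG had 55.6, 131.9 and 135.0 CPM, and SMH had 162.6, 162.0 and 160.4 CPM.

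**Figure D1:**
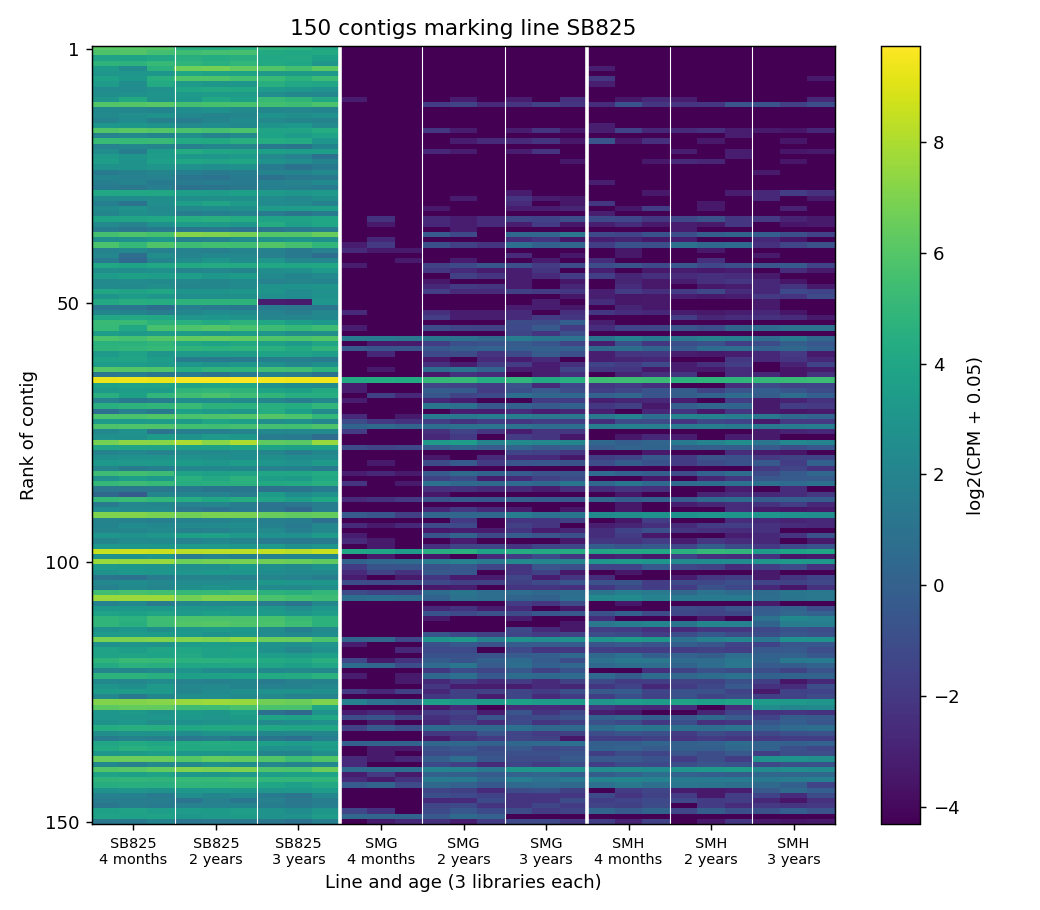
Level of each of the 150 members (rows, ranked by score, the best at the top) in the 27 libraries (columns, 3 per line and age), as log2(CPM + 0.05) by library total. The 9 SB825 columns at the left are high in nearly every row, the 4-month SMG columns are the emptiest, and the dark gap at rank 50 is CAP3_round1_contig_66 in 2 of the 3-year SB825 libraries.

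The separation seen in the sums also held in single libraries. All 150 members had reads in all 9 SB825 libraries, and in 149 of the 150 the lowest SB825 library was above the highest of the 18 SMG and SMH libraries; 6.19% of all contigs met this condition, or 2.79% with TMM-scaled library sizes, under which 149 members did as well, and since the rule used the same contrast nothing further is read from the count. The exception was CAP3_round1_contig_66, ranked 50, which had 17.7, 21.3 and 21.2 CPM in the 4-month SB825 libraries, 27.4, 26.7 and 27.3 CPM in the 2-year libraries and 0.0542, 0.0498 and 7.91 CPM in the 3-year libraries. The contig reached the list through the third 3-year library, since the first and second were within the range of 0 to 0.129 CPM of the 18 SMG and SMH libraries.

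A group of 14 members had no read in any of the 18 SMG and SMH libraries, which held 698150284 reads in all. These were the only contigs without such reads among the 21092, and they ranked between 1 and 28. A count of 0 allows up to 3 read pairs over the 18 libraries, or 0.00859 CPM, counting error only, and against this floor the lowest SB825 sum was at least 243.5-fold to at least 2562-fold higher. The floor is a mean over the 18 libraries pooled, and the limit for a single line and age sum is higher. These folds are thus not on the scale of the ratios to the highest SMG or SMH sum given for the other members. Bot_c5263, ranked first, had 66.6, 22.0 and 23.4 CPM in SB825 at 4 months, 2 years and 3 years and was at least 2562-fold higher than the floor. Bot_c7291 followed with 53.9, 45.7 and 17.9 CPM, and Bot_c12231 with 15.1, 22.3 and 15.6 CPM. Of the first 10 members, Bot_c13645, Bot_c18147, Bot_c3374 and Bot_c18487 also had no read outside SB825.

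The other 3 of the first 10 had a trace in SMH. Bot_c3159, with 13.6, 96.2 and 59.5 CPM in the 3 SB825 sums, had 2 reads (1 read pair) outside SB825, in a 4-month SMH library, and so had CCTT46268.g1. CAP3_round1_contig_6418 had 15.4, 54.0 and 33.4 CPM in SB825, and 0.0508 and 0.0158 CPM in the 4-month and 3-year SMH sums.

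In the 136 members with reads in the other lines, the ratio of the lowest SB825 sum to the highest SMG or SMH sum had a median of 13.8 and was 7.09 in the lowest of them. Reads came from 15 of the 18 libraries in the median one of these members, from 1 to 3 of them in 12 members and from all 18 in 28 members. CAP3_round1_contig_7796 was the most abundant member in SB825 and in the other lines alike, with 643, 800 and 687 CPM in the 3 SB825 sums, 19.4, 29.5 and 24.2 CPM in the SMG sums and 40.4, 27.8 and 36.2 CPM in the SMH sums. Bot_rep_c51914 had 403, 317 and 343 CPM in SB825, 14.0 to 21.0 CPM in SMG and 13.6 to 29.9 CPM in SMH. CAP3_round1_contig_9493 had 139, 195 and 108 CPM in SB825, 2.37 to 11.1 CPM in SMG and 9.58 to 13.3 CPM in SMH. In these 3 members the highest level in the other lines was above 8.93 CPM, the median SB825 level of the whole list. The same held for Bot_rep_c57729, with 9.29 CPM in the 2-year SMH sum, and Bot_rep_c52967, with 8.98 CPM in the 4-month SMH sum.

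At the end of the list the scores changed slowly. Bot_c15502, Bot_rep_c40330 and Bot_c29626 at ranks 148 to 150 had scores of 2.79, 2.77 and 2.76, and the first contigs left out, CAP3_round1_contig_1572, Bot_rep_c38791 and Bot_rep_c52220, had 2.76, 2.73 and 2.72. Scores were 3 or more in 128 members, 5 or more in 36 and 8 or more in 4.

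The remaining reads were spread unevenly over the 6 SMG and SMH sums. No read was seen for 82 members in the 4-month SMG sum, for 40 in the 2-year and for 29 in the 3-year SMG sum, and for 26, 32 and 28 members in the SMH sums of the same ages. The median level relative to the SB825 mean was 0%, 1.71% and 2.21% in SMG at 4 months, 2 years and 3 years, and 1.43%, 1.97% and 2.32% in SMH. Among the 136 members with reads, the highest of the 6 sums was 4-month SMH in 39 members, 2-year SMH in 28 and 3-year SMH in 26, and it was 4-month SMG in 2, 2-year SMG in 13 and 3-year SMG in 28. The low share in 4-month SMG moved with the larger share of contigs of all kinds that had no read there, and the part of that in the result was not tested.

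**Figure D2:**
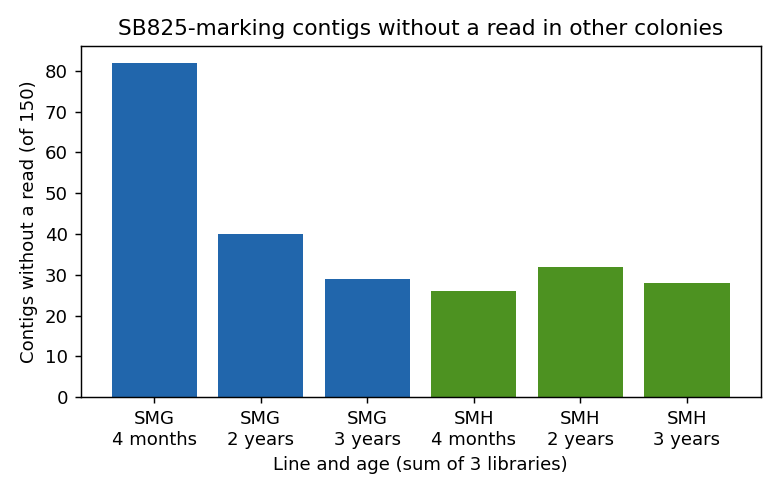
Number of the 150 members without a read in the sum of 3 libraries (vertical axis) for each SMG and SMH age (bars). The 4-month SMG bar stands at 82 and the other 5 at 26 to 40.

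Some members carried their remaining reads in 1 line and age, and 6 are named here after their values were seen. They had 80% or more of the CPM of the other lines in 1 sum and at least 0.2 CPM there. In the 3-year SMG sum, Bot_rep_c49211 had 0.594 CPM, Bot_rep_c38527 had 0.340 CPM and Bot_c21800 had 0.272 CPM, and the other 5 SMG and SMH sums of these contigs were at or below 0.0169 CPM. In the 3-year SMH sum, Bot_rep_c44349 had 0.236 CPM, CAP3_round1_contig_7845 had 3.53 CPM and Bot_rep_c45627 had 5.08 CPM. All 3 libraries of that line and age carried the reads in each of the 6. Bot_rep_c45627 had 5.99, 4.38 and 5.03 CPM in the 3-year SMH libraries, against 0.0961 to 0.193 CPM in the 4-month SMH libraries. CAP3_round1_contig_7845 had 1.89, 4.67 and 3.76 CPM against 0 to 0.129 CPM.

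Some members were shared mainly with 1 other line, in whole or in part. Bot_rep_c57397 and Bot_rep_c40330 are given here, also singled out after seeing the values and without a set criterion. Other members leaned to 1 line as well, such as Bot_c7750 with 6.27 to 7.68 CPM in the SMH sums and 0.544 to 2.34 CPM in the SMG sums. Bot_rep_c57397 had 30.8, 61.1 and 40.3 CPM in SB825 at 4 months, 2 years and 3 years, 0, 0 and 0.0170 CPM in SMG, and 3.17, 3.42 and 2.51 CPM in SMH, where all 9 libraries had reads (1.13 to 4.16 CPM). Bot_rep_c40330 had 13.5, 9.37 and 8.35 CPM in SB825, and 1.18, 1.03 and 0 CPM in SMG at the same ages, with no read in SMH. Its 4-month and 2-year SMG libraries ranged over 0.724 to 1.39 CPM, while the 3-year SMG libraries, of the parent of the 2-year colony, were at 0.

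By the start of their names, 53 members were Bot_c contigs, 61 Bot_rep_c contigs, 23 CAP3_round1_contig contigs and 13 carried names ending in .b1 or .g1, the form usual for the reads of the opposite ends of 1 EST clone. The shares were 35.3%, 40.7%, 15.3% and 8.67% of the members, against 33.2%, 28.7%, 35.9% and 1.48% of the 21092 contigs at 2 CPM or more in SB825. Over all 50106 contigs they were 48.1%, 25.5%, 20.1% and 5.03%. The shares are a description of the list, with no test. For 5 of the 13 EST reads the other read of the clone was in the count table as well, and in 2 clones both were members: CCTT46268.g1 (rank 8) with CCTT46268.b1 (rank 87), and CCTT44393.b1 (rank 89) with CCTT44393.g1 (rank 96). CCTT18823.g1, the mate of the member CCTT18823.b1, was below 2 CPM, with 0.165, 0.0728 and 0.0728 CPM in SB825 at 4 months, 2 years and 3 years and no read in SMG or SMH. Contigs of 1 clone may stand for 1 transcript, so the number of genes behind the 150 members is not known.

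The same rule was run with SMG and with SMH in place of SB825, to set the list beside the most alike ones. The score at rank 150 was 2.76 for SB825, 0.66 for SMG and 0.42 for SMH, and a score of 1 or more was reached by 776 contigs for SB825, 93 for SMG and 84 for SMH. The numbers with a score of 3 or more were 128, 22 and 25, and the lists held 14, 3 and 4 contigs without a read in the other lines. These counts moved with the scaling: with TMM-scaled library sizes, 388 contigs for SB825, 153 for SMG and 134 for SMH scored 1 or more, 81, 26 and 29 scored 3 or more, and the score at rank 150 was 2.16, 1.04 and 0.89. Under both scalings SB825 had the most contigs that stood above the other lines at all ages, by a smaller margin with TMM. The young SMG libraries counted in the SMG list too, and without them its score at rank 150 was 1.06, with 159 contigs at 1 or more. The lowest SMG sum was then taken over the 2-year and 3-year sums only, which by itself cannot lower a score. It also let in more contigs, with 19347 eligible against 16158.

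**Figure D3:**
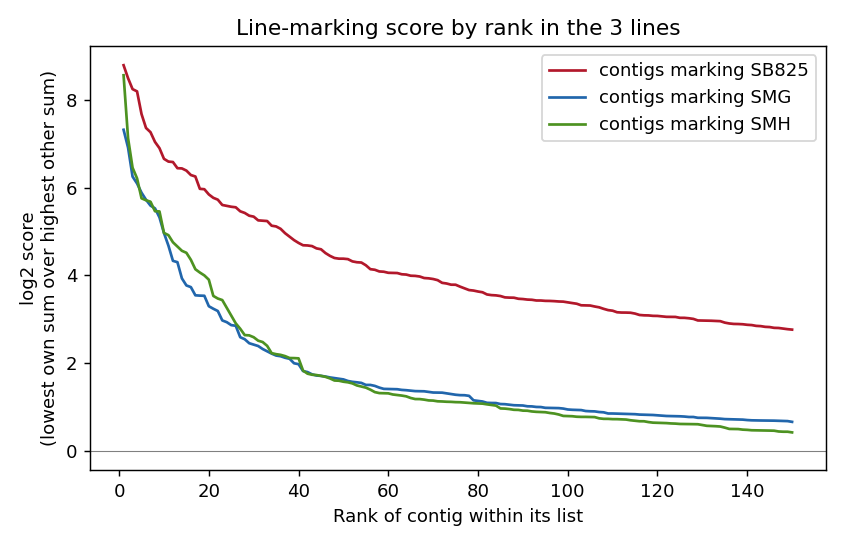
Score (log2 ratio of the lowest own sum to the highest sum of the other lines, vertical axis) against rank for the contigs marking SB825, SMG and SMH by the same rule, with CPM by library total. The SB825 curve ends at 2.76 at rank 150, the SMG curve at 0.66 and the SMH curve at 0.42.

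The rule asked for a high level at every age of SB825 but not for a direction of change with age. It ranked by the lowest SB825 age, so a contig with a deep drop at any age ranked lower. Shares called and ranges over age are therefore not independent of the choice of members, and are set beside other contigs as a description. Change with age was tested with edgeR's quasi-likelihood test on all 27 libraries, with adjustment over the 43180 contigs tested and a threshold of 0.10. All 150 members passed the filter on low counts. Values below are CPM on TMM-scaled library sizes, called normalised CPM, and log2 fold changes are the older age over the younger.

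At 3 years against 4 months, 68 of the 150 members (45.3%) changed, 18 higher and 50 lower at 3 years, though 28 were higher in limma-voom and 29 in a fit of the 9 SB825 libraries alone. Over all contigs tested 51.6% changed, 26% higher and 25.6% lower, and over the contigs at 2 CPM or more in SB825 60.3% changed, 23.1% higher and 37.2% lower. The members' median log2 fold change was -0.16, against 0 for all contigs tested and -0.13 for those at 2 CPM or more. The 3-year libraries did not overlap the 4-month libraries in 23 members that were higher and 66 that were lower (25.9% and 27.9% of all contigs tested, 23% and 39.2% of those at 2 CPM or more). Of the called members, 30 changed by 1 or more on the log2 scale, or 20% of the 150, against 24.1% of all contigs tested and 14.7% of those at 2 CPM or more. With the third 3-year SB825 library left out, 63 members were called, 21 of them higher, and 54 were among the 68.

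**Figure D4:**
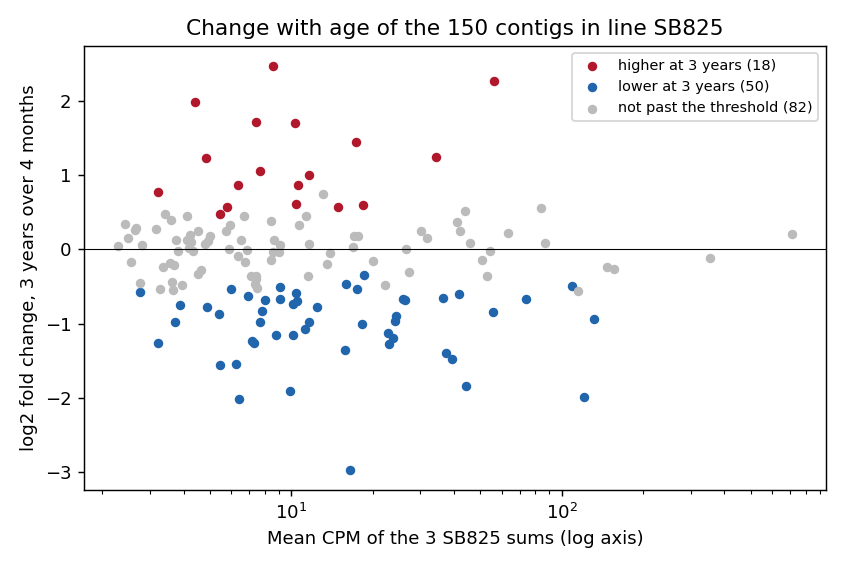
Log2 fold change of 3 years over 4 months in SB825 (vertical axis) against the mean CPM of the 3 SB825 sums (log axis) for the 150 members. The 18 members higher at 3 years (red) and the 50 lower (blue) passed edgeR's quasi-likelihood test at 0.10, and 82 (grey) did not.

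The members ranked first followed different age courses. Bot_c5263 had 57.6, 53.0 and 47.0 normalised CPM in the 4-month libraries, 15.4, 14.8 and 17.3 in the 2-year libraries and 24.1, 23.9 and 11.8 in the 3-year libraries. It was lower at 3 years than at 4 months with a log2 fold change of -1.40 (SE 0.24, adjusted p = 0.00117) and lower at 2 years with a change of -1.73 (SE 0.25, adjusted p = 0.000461). The 4-month libraries stood above all 6 older ones, while 3 and 2 years differed by 0.33 (adjusted p = 0.387). Bot_c7291 had 46.1, 46.2 and 35.4 normalised CPM at 4 months, 29.4, 35.3 and 34.4 at 2 years and 15.9, 15.7 and 14.0 at 3 years. Its fall lay mainly in the last step, with -1.12 for 3 years against 2 years (SE 0.13, adjusted p = 1.30e-05), and the ages of 3 years and 4 months were apart by -1.48 (SE 0.14, adjusted p = 3.80e-07). For 2 years against 4 months its value of -0.37 (adjusted p = 0.0444) lost the call with library totals (adjusted p = 0.277) and without the first 2-year library or the first or second 4-month library (adjusted p = 0.164 to 0.177).

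Bot_c3159 took the opposite course. It had 8.20, 4.28 and 18.7 normalised CPM at 4 months, 70.3, 83.8 and 56.8 at 2 years and 51.6, 46.1 and 53.4 at 3 years, so that all 6 older libraries were above the 4-month ones. The log2 fold change was 2.27 for 3 years against 4 months (SE 0.49, adjusted p = 0.00475) and 2.75 for 2 years against 4 months (SE 0.49, adjusted p = 0.00249). Without the third 4-month library, the highest of its age, the value for 3 years against 4 months was 3.01. CAP3_round1_contig_6418 had a like course, with 10.9, 7.03 and 17.8 normalised CPM at 4 months, 42.4, 43.4 and 32.4 at 2 years and 30.9, 25.0 and 28.9 at 3 years. It changed by 1.25 for 3 years against 4 months (SE 0.38, adjusted p = 0.0208) and by 1.72 for 2 years against 4 months (SE 0.39, adjusted p = 0.00488). In DESeq2 the values were 1.28 and 1.75 and neither was called (adjusted p = 0.424 and 0.288).

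The falls at 3 years were spread over low and high levels. Bot_rep_c45623, among the 10 most abundant members, had 162, 154 and 148 normalised CPM at 4 months, 76.6, 97.4 and 89.2 at 2 years and 44.6, 42.3 and 29.8 at 3 years, with no overlap between any pair of ages. The change was -1.99 for 3 years against 4 months (SE 0.20, adjusted p = 4.21e-08), and the steps were -0.82 for 2 years against 4 months and -1.17 for 3 years against 2 years (adjusted p = 0.00232 and 7.95e-05). Bot_rep_c36625 fell to 12.9, 13.8 and 15.6 normalised CPM at 3 years, against 50.8, 54.9 and 46.8 at 4 months, a change of -1.85 (SE 0.23, adjusted p = 9.21e-07), with 35.7 to 37.8 at 2 years. Bot_c16361 fell to 3.58, 3.88 and 3.42 at 3 years, against 14.1, 14.0 and 12.7 at 4 months, a change of -1.91 (SE 0.23, adjusted p = 3.39e-07), with 5.45 to 6.28 at 2 years. Both had tight libraries that did not overlap between the ages.

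Bot_rep_c47519 was low at both older ages, with 11.2, 11.6 and 8.68 normalised CPM at 4 months, 2.09, 2.15 and 2.01 at 2 years and 2.87, 2.95 and 1.98 at 3 years. Its change was -2.01 for 3 years against 4 months (SE 0.32, adjusted p = 1.31e-05) and -2.33 for 2 years against 4 months (adjusted p = 3.67e-06). CAP3_round1_contig_66 had 14.7, 16.6 and 16.0 normalised CPM at 4 months, 19.7, 20.1 and 19.1 at 2 years, and 0.0471, 0.0468 and 5.85 at 3 years, so that the third 3-year library stood far above the first and second. The change of -2.98 for 3 years against 4 months (SE 0.95, adjusted p = 0.0222) was -8.29 without that library and -2.41 without either of the others. The fit of the 9 SB825 libraries alone gave -2.93 without a call (adjusted p = 0.107), and DESeq2 gave -2.97 and no adjusted p.

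The other large rises at 3 years were in members of lower level. Bot_rep_c50874 had 1.39, 2.67 and 1.91 normalised CPM at 4 months, 8.80, 7.13 and 6.06 at 2 years and 17.9, 11.5 and 3.92 at 3 years, a change of 2.47 for 3 years against 4 months (SE 0.41, adjusted p = 4.40e-05). The ages did not overlap at 3 years and 4 months, though the 3-year libraries covered a range wider than that of 2 years. Bot_c3140 was higher at 3 years than at both younger ages, with 3.02, 3.81 and 3.07 normalised CPM at 4 months, 4.46, 2.95 and 3.62 at 2 years and 12.1, 10.1 and 10.5 at 3 years. It changed by 1.72 for 3 years against 4 months (SE 0.24, adjusted p = 1.37e-05) and by 1.57 for 3 years against 2 years (adjusted p = 6.26e-05), and had a value of 0.16 for 2 years against 4 months (adjusted p = 0.672). Bot_rep_c54131 had 17.2, 11.7 and 11.2 at 3 years, against 4.32, 2.96 and 4.94 at 4 months, a change of 1.71 (SE 0.27, adjusted p = 6.99e-06), with 5.99 to 8.27 at 2 years.

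The reads of clone CCTT46268, which are separate members, were both highest at 3 years. CCTT46268.b1 had 8.75, 5.24 and 5.22 normalised CPM at 3 years, against 1.06, 0.635 and 3.11 at 4 months, a change of 1.99 (SE 0.43, adjusted p = 0.000832) that was 2.92 without the third 4-month library. CCTT46268.g1 had 20.1, 15.7 and 11.4 normalised CPM at 3 years, against 9.07, 4.53 and 14.5 at 4 months, and the difference of 0.75 did not pass the test (adjusted p = 0.137). In both reads the third 4-month library was the highest of its age and the second the lowest, as it was in Bot_c3159 and CAP3_round1_contig_6418.

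**Figure D5:**
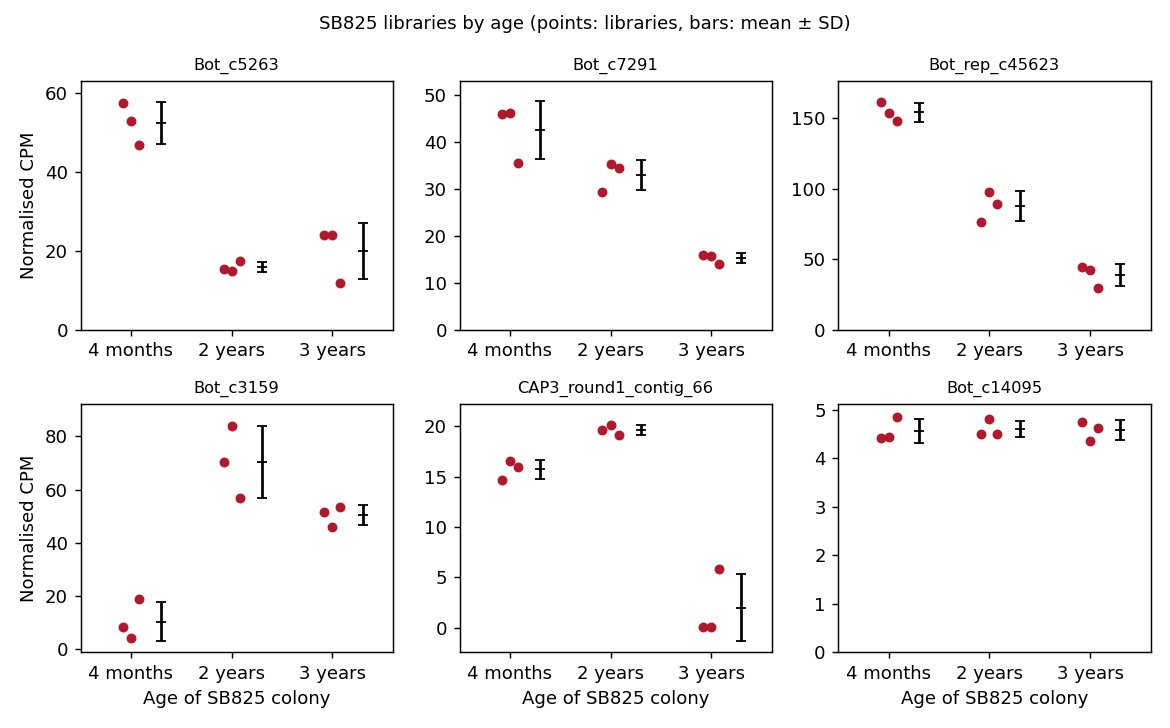
Normalised CPM of 6 members (vertical axes, each with its own scale) in the 3 SB825 libraries of each age (points), with the mean ± SD of the 3 libraries (bars). Bot_c5263, Bot_c7291 and Bot_rep_c45623 are highest at 4 months, Bot_c3159 is lowest there, CAP3_round1_contig_66 is near 0 in 2 of its 3-year libraries, and Bot_c14095 is level at 4.57 to 4.61.

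At 2 years against 4 months, 58 members (38.7%) changed, 21 higher and 37 lower at 2 years. The shares over all contigs tested were 40.2% in all, 18.8% higher and 21.4% lower, and over those at 2 CPM or more 53.1%, 19.7% and 33.5%. With library totals in place of TMM, 45 members were called, 21 higher and 24 lower. The libraries did not overlap in 33 members that were higher and 58 that were lower (23.1% and 27.3% of all contigs tested, 24.6% and 40% of those at 2 CPM or more). Bot_c3374 had 11.4, 13.5 and 11.9 normalised CPM at 2 years, against 4.46, 4.28 and 5.10 at 4 months, a change of 1.41 (SE 0.21, adjusted p = 8.69e-05), while it averaged 7.09 ± 1.85 at 3 years (SD, n = 3). Among the most abundant members, Bot_rep_c47837 was higher at 2 years by 1.19 (SE 0.36, adjusted p = 0.0163) and Bot_rep_c57729 by 0.71 (SE 0.12, adjusted p = 3.65e-05), while CAP3_round1_contig_8359 was lower with a log2 fold change of -0.94 (SE 0.13, adjusted p = 1.82e-06).

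At 3 years against 2 years, 51 members (34%) changed, 23 higher and 28 lower at 3 years. The shares over all contigs tested were 31.4% in all, 16.3% higher and 15.1% lower, and over those at 2 CPM or more 34.7%, 16% and 18.7%. With library totals, which gave a median of -0.21 over all contigs against 0 with TMM, the split was 14 higher and 40 lower, and 15 members were higher without the first 3-year or the first 2-year library. The libraries did not overlap in 27 members that were higher and 45 that were lower (20.6% and 20.3% of all contigs tested, 20.4% and 25% of those at 2 CPM or more). Bot_rep_c57729 was lower at 3 years, with 51.2, 51.0 and 71.3 normalised CPM against 93.6, 86.2 and 87.2 at 2 years, a change of -0.62 (SE 0.12, adjusted p = 0.000203). CAP3_round1_contig_9493 was lower at 3 years with a change of -0.63 (SE 0.16, adjusted p = 0.00390), with 90.7, 89.9 and 94.8 normalised CPM against 137, 156 and 132 at 2 years.

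Over the 3 ages together, 98 members were called in at least 1 of the comparisons, 10 in all 3 and 52 in none. Over all contigs tested the shares were 64.5%, 9.35% and 35.5%, and over those at 2 CPM or more 75.2%, 12.5% and 24.8%. By mean normalised CPM, 68 members were highest at 4 months, 51 at 2 years and 31 at 3 years, against 47.5%, 27.7% and 24.9% of the contigs at 2 CPM or more. A steady fall with age was seen in 36 members (24%, against 26.7% of those contigs) and a steady rise in 11 (7.33%, against 13.4%). The range over the ages had a median of 0.70 on the log2 scale, was below 1 in 106 members and reached 2 in 5 of them, with a largest value of 3.31 in CAP3_round1_contig_66; the median range was 0.58 in the contigs at 2 CPM or more. The median coefficient of variation between libraries was 11.0%, 8.92% and 14.1% over the members at 4 months, 2 years and 3 years, and 8.65%, 7.97% and 11.4% over the contigs at 2 CPM or more.

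The members chosen for the smallest range over age had age means close to each other by that choice. Bot_c14095 had the smallest range, with 4.41, 4.45 and 4.86 normalised CPM at 4 months, 4.50, 4.81 and 4.52 at 2 years and 4.75, 4.35 and 4.64 at 3 years. Bot_rep_c37256 averaged 7.13 ± 0.204, 7.08 ± 0.528 and 6.98 ± 0.536 normalised CPM at 4 months, 2 years and 3 years, Bot_c24847 averaged 20.6 ± 1.98, 21.0 ± 4.26 and 20.7 ± 1.46, and Bot_c10081 averaged 6.88 ± 0.607, 6.65 ± 0.436 and 6.69 ± 1.11 (SD, n = 3 each). CAP3_round1_contig_9068 averaged 43.7 ± 2.57, 40.9 ± 3.00 and 42.9 ± 16.9, where the third 3-year library, at 23.4, lay apart from the first and second at 54.3 and 51.0. That library was the lowest of its age in 80 members and the highest in 33. The most abundant member, CAP3_round1_contig_7796, had 527, 521 and 469 normalised CPM at 4 months, 555, 577 and 599 at 2 years and 628, 617 and 505 at 3 years, and its change of 0.21 for 3 years against 4 months did not pass the test (SE 0.11, adjusted p = 0.135).

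The p-values for age measure the spread between these libraries of 1 genotype at each age, which may be technical, and age, generation and genotype cannot be told apart.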

How the data were processed

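Per the labels and the study's methods, polyA libraries of whole-colony RNA were sequenced in pairs on an Illumina instrument. The authors mapped reads to an EST assembly with Bowtie 0.12.7 after removing 12 bases from their start, and deposited raw counts of reads per contig; CASAVA 1.8.2, FastQC, SAMtools 0.1.18 and DESeq 1.10.1 stand in the submitters' processing notes. How reads that match several contigs were placed is not given in the sources used here. All counts are even, so each read pair counts as 2 reads. The main fit used the counts as deposited, and a fit of read pairs is given as an alternative. A further deposited table, of old against young libraries, holds the authors' fold changes and p-values and was not used. The 4-month SMG columns of the count table carry the line name SMGO; they were taken as SMG because the study's methods list SMGO beside SB825 and SMH, but no source used here states that the names are the same.

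Member levels were CPM of summed libraries. Age was tested in R 4.3.3 with the quasi-likelihood test of edgeR 4.0.16 (TMM, filterByExpr, robust fit) on 9 groups of 3 libraries, and p-values were adjusted by Benjamini and Hochberg's method with 0.10 as the threshold. The F statistic gave the SE of each log2 fold change. The alternatives used limma 3.58.1 and DESeq2 1.42.0 among other settings. Scripts were tested on simulated data. The named contigs were the 10 ranked first, the 10 most abundant, 3 on each side of rank 150, the 5 largest called changes in each direction for 3 years against 4 months, the 5 most even over age, and the 3 highest in the other lines; those with a homolog name were to be added, and there were 0. Others are named as chosen after their values were seen. Deviations of same-numbered SB825 libraries from their group means correlated across contigs by 0.16 to 0.20 between 3 years and 4 months and by -0.36 to -0.087 in the other comparisons; the labels do not say what a number marks. Libraries of 1 group differed by more than sampling noise. The members and lists were chosen with earlier results of these data known.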

Additional observations from a re-analysis of the deposited data

How the results depend on the processing

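Of the 150 members, 128 were kept with 0.5 CPM added in place of 0.05, 135 with TMM-scaled sizes, 127 with single libraries in place of sums, and 136 to 144 without 1 replicate number. With a minimum of 5 CPM 89 were kept, since 61 had a lowest SB825 sum under it. Ranked against SMG alone 72 were kept, and against SMH alone 89; the cause was not tested. Members called in limma-voom were 94 for 3 years against 4 months, 28 higher and 66 lower. They were 91 for 2 years against 4 months, 35 higher and 56 lower, and 46 were lower for 3 years against 2 years. The fit of the 9 SB825 libraries alone gave 29 and 32 higher for 3 years and 2 years against 4 months. With read pairs in place of reads, 82 members were called for 3 years against 4 months, 23 higher and 59 lower. All 68 members called in the main fit were among them. Library totals gave 24 lower for 2 years against 4 months and 14 higher for 3 years against 2 years. Without 1 library, members called ranged from 54 to 64 (12 to 21 higher, 41 to 48 lower) for 3 years against 4 months, from 41 to 59 (14 to 21 higher, 26 to 38 lower) for 2 years against 4 months, and from 38 to 52 (15 to 24 higher, 22 to 28 lower) for 3 years against 2 years. Calls kept under every alternative were 42 of 68, 30 of 58 and 30 of 51, and of 53 called results of named contigs 37 stayed called under every alternative and none changed direction. For members without a read in the other lines, depth sets an upper limit of 0.00859 CPM over the 18 libraries.

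With the replicate block 67, 55 and 50 members were called in the 3 comparisons, and no call of a named contig changed for 3 years against 4 months. In that comparison all same-numbered libraries correlated positively, but differently numbered ones ranged from -0.37 to 0.28. In the other 2 comparisons the libraries shared a number only, and not every library correlated best with its own number in any of the 3.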
